A study of Mus musculus with 4 samples.

Results

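Endoplasmic reticulum (ER) folding and unfolded protein response (UPR) genes were followed in single cells of MMTV-PyMT mouse mammary glands and tumors. The set was a named list of 30 genes that covers a UPR sensor and its transcription factors, targets of the eIF2alpha-ATF4 arm, ER chaperones, disulfide isomerases, degradation factors and the translocon. A gene entered when its rows held at least 10 UMIs (unique molecular identifiers, one per captured RNA molecule) over the annotated cells of the 4 libraries. All 30 of 30 passed, among 21332 genes that did so and 31781 genes listed in any file. Levels are given as CPM, the UMIs of a gene scaled to a total of 1000000 UMIs over the cells summed.

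The 4 groups were tumors of PKA activated mice, tumors of wild type (WT) mice, hyperplastic glands of PKA activated mice and hyperplastic glands of WT mice, with 1 library each. All mice carried MMTV-PyMT, in which a mammary tumor virus promoter drives polyoma middle T antigen in the mammary epithelium, and the labels give no treatment. PKA is the cAMP-dependent protein kinase A; the sources used here do not give how it was activated, in which cells, or how many mice went into a library. Mice with hyperplastic glands were 8 to 9 weeks old. Tumor-bearing mice were 16 to 20 weeks old in the sample labels but 22 weeks in the series design. The comparisons ask how PKA activation went together with expression at each stage of tumor development.

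The libraries held 2638 annotated cells in PKA tumor, 5181 in WT tumor, 3818 in PKA hyperplasia and 3808 in WT hyperplasia. Their total UMIs were 16758734, 24499374, 10648097 and 10797950 in that order, with a median per cell of 2557 to 5890.5. Any pair of libraries shared 16 to 24 cell barcodes. The sums over the epithelial markers Epcam, Krt8 and Krt18 were 9878 to 11710 CPM over all cells of a library, and the B and plasma cell list summed to 0.6 to 5.9 CPM, so transcripts of antibody-secreting cells, which carry abundant ER folding genes, were nearly absent. Cells are summed within the authors' classes, which were named from markers that are not members. Apart from Cd14, the 10 leading genes of each class held none of the markers that the series design gives for another class. Cd14 is given for both Luminal Progenitor and Lumino-Basal cells. The leading genes held a marker of the class itself only in 3 of the 4 Luminal Progenitor 1 sums (Cd14) and in the 4 Mature Luminal sums (Gpx3). The secretoglobin genes Scgb1b27 and Scgb2b27, which led Luminal Progenitor 2 in hyperplasia, also led the EMT-like cells of WT tumor and were among the leading genes of Luminal Progenitor 1 in PKA tumor. Trim29 and Cldn6, which the series design gives as EMT-like markers, were at 0 in the EMT-like cells of both tumors. Those cells also had a lower sum over the EMT-like list (365 CPM in PKA tumor, against 255 CPM in WT tumor) than Luminal Progenitor 1 cells (819 CPM in PKA tumor, against 709 CPM in WT tumor). The class is therefore called by the authors' label alone.

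With 1 library per group no test was possible and no difference has a replicate check. Each log2 ratio is given with an exact 95% interval that covers counting error only, so it compares these libraries and not the conditions. A gene counted as measured in a comparison if its UMIs in the pair of libraries summed to 50 or more, and it was called higher or lower at a fold of 1.5 or more. In a sum over cells, fewer cells of a type and less RNA per cell cannot be told apart.

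Secreted and membrane proteins enter the ER through the Sec61 channel and are folded there by BiP, the lectin chaperones and the disulfide isomerases. When unfolded proteins build up, the sensors IRE1, PERK and ATF6 start the UPR. IRE1 splices Xbp1 mRNA into the form that encodes an active transcription factor. PERK phosphorylates eIF2alpha, which slows translation in general while ATF4 is made, and cleaved ATF6 enters the nucleus. XBP1 and ATF6 raise chaperone and degradation genes, whereas ATF4 raises amino acid genes and the factor CHOP. In the mammary gland the luminal cells carry a large secretory load in lactation, and XBP1 is known as a regulator of secretory cell development.

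XBP1, ATF6 and ATF4 are known to bind short DNA elements near gene starts. Promoter stretches of 5 members that match such elements are shown: the 4 with ERSE or ERSE-II whose log2 ratio of PKA to WT over all cells was farthest from 0 at either stage, whether called or not, and Asns as a target of ATF4. RefSeq promoter windows (GRCm38.p6, 250 bases before to 50 bases after the gene start) were matched by symbol for 27 of 30 members; Manf, Hyou1 and Sec61a1 were not matched. The ER stress response element (ERSE: CCAAT, any 9 bases, CCACG) or its compact form ERSE-II (ATTGG, any 1 base, CCACG) was found on either strand in 10 of 27 member promoters (37.0%), against 0.155% of 32851 promoters. ERSE was found for Calr, Canx, Creld2, Dnajc3, Hsp90b1, Hspa5, Pdia6 and Syvn1, and ERSE-II for Dnajb11 and Herpud1. The core of the ATF4-bound CARE element (TGATG, any 1 base, AA) was found for Asns, Chac1, Herpud1 and Trib3, which is 14.8% of the members' promoters against 3.97% of all promoters. The XBP1-bound UPRE core (TGACG directly followed by TGG) was found in 0 of 27 member promoters and in 0.676% of all promoters. A match describes the letters in the window and is not evidence of binding. The members were listed as genes of this response, so their higher shares describe the list and are not a result of these data. Below, capitals mark the matched element and the flanking bases are in lower case, 5' to 3' on the strand of the gene. The Hspa5, Canx and Syvn1 stretches hold ERSE, the Herpud1 stretch holds CARE on the opposite strand and then ERSE-II, and the Asns stretch holds CARE. They lie at chr2:34772013-34772055 (plus strand, Hspa5), chr11:50325788-50325830 (minus strand, Canx), chr19:6046520-6046562 (plus strand, Syvn1), chr8:94386305-94386399 (plus strand, Herpud1) and chr6:7693213-7693244 (minus strand, Asns).
Hspa5: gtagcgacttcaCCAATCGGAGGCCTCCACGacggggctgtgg
Canx: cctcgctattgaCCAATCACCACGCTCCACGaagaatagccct
Syvn1: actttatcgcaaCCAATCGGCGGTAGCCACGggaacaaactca
Herpud1: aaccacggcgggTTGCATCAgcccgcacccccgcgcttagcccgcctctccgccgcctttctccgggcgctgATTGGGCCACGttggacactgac
Asns: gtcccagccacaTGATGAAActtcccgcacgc

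Over all cells the 30 genes made up 0.613% of UMIs in PKA tumor (interval 0.610 to 0.617), 0.746% in WT tumor (0.743 to 0.750), 0.544% in PKA hyperplasia (0.539 to 0.548) and 0.581% in WT hyperplasia (0.576 to 0.585). The share was thus lower in the PKA library at both stages, and the gap was wider in tumors. In Luminal Progenitor 1 cells, the most frequent class of every library, the share was 0.626% in PKA tumor and 0.819% in WT tumor, and 0.530% in PKA hyperplasia and 0.563% in WT hyperplasia. EMT-like cells had the highest share of any class, 0.813% in PKA tumor and 0.936% in WT tumor. The lowest shares were in Mature Luminal cells, with 0.373% in PKA tumor, 0.477% in WT tumor, 0.340% in PKA hyperplasia and 0.454% in WT hyperplasia. Luminal Progenitor 2 cells, found only in hyperplasia, were the 1 class in which the PKA library was higher, with 0.726% in PKA hyperplasia and 0.652% in WT hyperplasia.

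**Figure D1:**
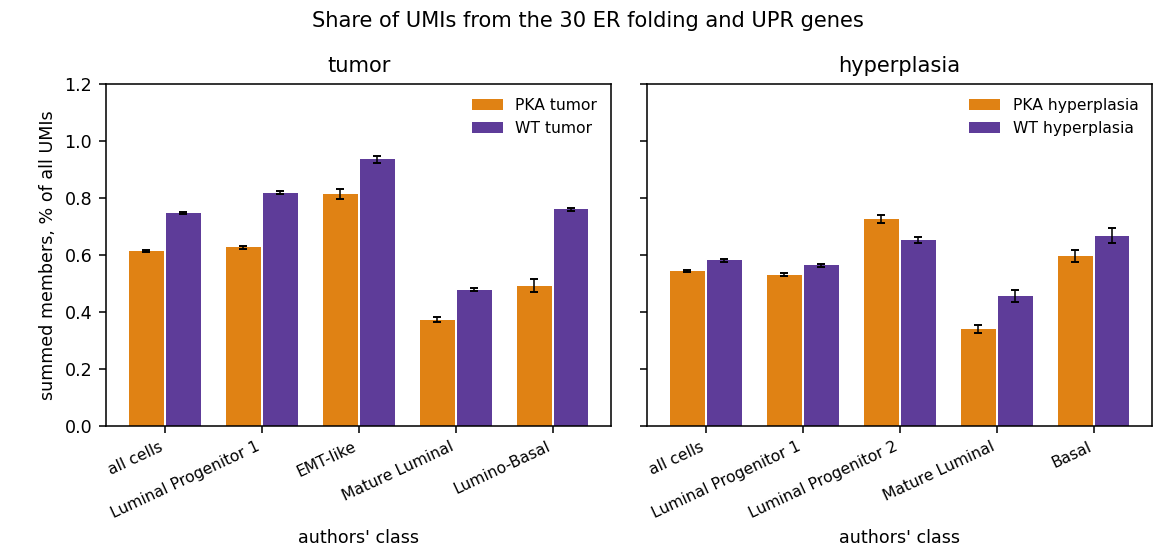
Summed UMIs of the 30 genes as a percent of all UMIs (y axis) by class (x axis), tumor on the left and hyperplasia on the right. Bars are single libraries and error bars are 95% Poisson counting intervals. In tumors each PKA bar lies below its WT bar (0.626% against 0.819% in Luminal Progenitor 1 cells), and in hyperplasia only Luminal Progenitor 2 has a higher PKA bar (0.726% against 0.652%).

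Among the sensor and factors, Xbp1 (chr11:5520659-5525893, plus strand, GRCm38) was called lower in the PKA library at both stages. Its level over all cells was 897 CPM in PKA tumor, 1623 CPM in WT tumor, 335 CPM in PKA hyperplasia and 506 CPM in WT hyperplasia. PKA libraries were lower than WT libraries at both stages, and both tumors were higher than both hyperplasias. The log2 ratio of PKA to WT was -0.86 in tumor (-0.88 to -0.83) and -0.60 in hyperplasia (-0.66 to -0.54). These counts per gene do not separate spliced from unspliced Xbp1. Ern1, which encodes the sensor IRE1alpha, was sparse: 4.65 CPM in PKA tumor, 7.43 CPM in WT tumor, 6.57 CPM in PKA hyperplasia and 6.95 CPM in WT hyperplasia. It was called lower in PKA tumor (-0.67, -1.08 to -0.28), and in hyperplasia its interval spanned 0 (-0.57 to 0.41).

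Atf4, the effector of the PERK arm, differed more by stage than by genotype, with 256 CPM in PKA tumor, 292 CPM in WT tumor, 754 CPM in PKA hyperplasia and 785 CPM in WT hyperplasia. Ddit3, which encodes CHOP, a factor linked to death of stressed cells, had 49.3 CPM in PKA tumor, 72.1 CPM in WT tumor, 43.2 CPM in PKA hyperplasia and 33.9 CPM in WT hyperplasia. PKA was below WT in tumor (-0.55, -0.67 to -0.43) and above WT in hyperplasia (0.35, 0.15 to 0.55), both within the fold of 1.5. ATF4 activity is largely set by translation of its mRNA, which UMIs do not measure, so its targets are given next.

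The 4 targets of the eIF2alpha-ATF4 arm did not share 1 pattern. Trib3, a pseudokinase, was at 18.3 CPM in PKA tumor, 22.1 CPM in WT tumor, 133 CPM in PKA hyperplasia and 187 CPM in WT hyperplasia. Chac1, a glutathione-degrading enzyme, was at 1.43 CPM in PKA tumor (24 UMIs), 2.98 CPM in WT tumor (73 UMIs), 61.1 CPM in PKA hyperplasia and 79.6 CPM in WT hyperplasia. Both were far lower in the tumor libraries. Ppp1r15a, the subunit (GADD34) that directs a phosphatase to eIF2alpha, ran the other way, with 289 CPM in PKA tumor, 290 CPM in WT tumor, 106 CPM in PKA hyperplasia and 102 CPM in WT hyperplasia. Asns, asparagine synthetase, stayed between 46.5 and 64.5 CPM. Between PKA and WT, Chac1 was called lower in tumor (-1.04, -1.79 to -0.37); Trib3, Chac1 and Asns had intervals below 0 in hyperplasia (-0.48, -0.38 and -0.33) without passing the fold.

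Among the chaperones, Hspa5, which encodes BiP, the HSP70 that also holds the sensors inactive, was at 687 CPM in PKA tumor, 880 CPM in WT tumor, 290 CPM in PKA hyperplasia and 319 CPM in WT hyperplasia. Its log2 ratio of PKA to WT was -0.36 in tumor (-0.39 to -0.32) and -0.14 in hyperplasia (-0.21 to -0.07). Dnajb9 (ERdj4), a BiP cochaperone that represses IRE1, had 118 CPM in PKA tumor, 152 CPM in WT tumor, 34.0 CPM in PKA hyperplasia and 30.8 CPM in WT hyperplasia. Hsp90b1 (GRP94), the HSP90 of the ER, differed less, with 366 CPM in PKA tumor, 344 CPM in WT tumor, 262 CPM in PKA hyperplasia and 266 CPM in WT hyperplasia. Among the remaining cochaperones and the exchange factor Hyou1, none passed the fold between PKA and WT at either stage over all cells. Over all cells of tumors the lectin chaperones, which hold glycoproteins until they fold, lay on opposite sides of 0. Canx had 180 CPM in PKA tumor, against 232 CPM in WT tumor (-0.36, -0.43 to -0.30). Calr had 528 CPM in PKA tumor, against 503 CPM in WT tumor (0.07, 0.03 to 0.11). Within Luminal Progenitor 1, Mature Luminal and Lumino-Basal cells of tumors both were below 0, and only in EMT-like cells did they lie on opposite sides.

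The secreted ER stress proteins Manf and Creld2 had ratios within the fold at both stages over all cells, with intervals below 0 in tumor (-0.23 and -0.32). P4hb, protein disulfide isomerase itself, had 250 CPM in PKA tumor, 395 CPM in WT tumor, 414 CPM in PKA hyperplasia and 370 CPM in WT hyperplasia. The PKA tumor library was the lowest of the 4, with a log2 ratio to WT tumor of -0.66 (-0.71 to -0.61), while PKA hyperplasia was above WT hyperplasia (0.16, 0.10 to 0.23). Pdia3, the isomerase that works with the lectins, had 553 CPM in PKA tumor, 522 CPM in WT tumor, 222 CPM in PKA hyperplasia and 260 CPM in WT hyperplasia. Pdia4 was lower in tumors, with 13.4 CPM in PKA tumor, 10.0 CPM in WT tumor, 42.8 CPM in PKA hyperplasia and 48.9 CPM in WT hyperplasia. The isomerases thus had no common direction by genotype or by stage.

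Herpud1 (chr8:94386438-94395377, plus strand), the membrane protein that assembles the HRD1 degradation complex, carries both ERSE-II and CARE in the promoter printed above. It had 96.0 CPM in PKA tumor, 167 CPM in WT tumor, 79.3 CPM in PKA hyperplasia and 109 CPM in WT hyperplasia. The PKA library was lower at both stages, by -0.80 in tumor (-0.88 to -0.72) and -0.46 in hyperplasia (-0.59 to -0.33) on the log2 scale. Its partners in the complex differed less: Sel1l, the adaptor, had 65.4 CPM in PKA tumor, against 67.8 CPM in WT tumor, and Syvn1, the ubiquitin ligase HRD1, had 15.8 CPM in PKA tumor, against 20.7 CPM in WT tumor. Edem1, which picks misfolded glycoproteins for degradation, had 48.8 CPM in PKA tumor, 58.2 CPM in WT tumor, 41.7 CPM in PKA hyperplasia and 31.4 CPM in WT hyperplasia. Sec61b, a small subunit of the channel, was the member with the highest ratio in tumors, with 355 CPM in PKA tumor, against 262.7 CPM in WT tumor (0.44, 0.38 to 0.49). In hyperplasia it had 527 CPM in PKA and 534 CPM in WT. The channel pore Sec61a1 went the other way in tumors, with 94.6 CPM in PKA tumor, against 119 CPM in WT tumor (-0.32, -0.41 to -0.24).

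**Figure D2:**
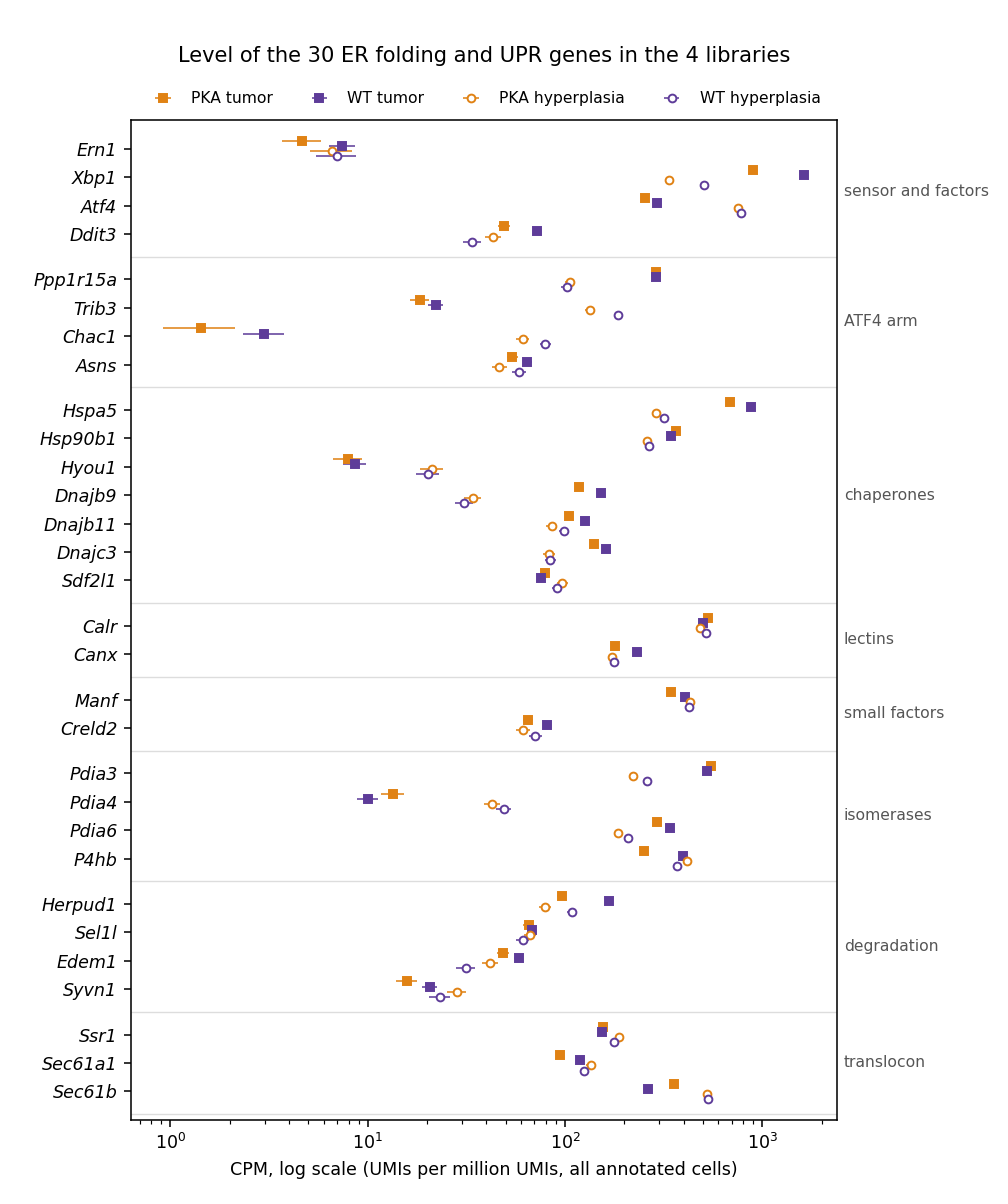
CPM over all annotated cells (x axis, log scale) of each member (y axis, grouped by role) in the 4 libraries; points are single libraries and bars are 95% counting intervals. Xbp1 separates all 4 libraries (897, 1623, 335 and 506 CPM in PKA tumor, WT tumor, PKA hyperplasia and WT hyperplasia), and Chac1 and Trib3 lie far lower in both tumors.

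Counted over all cells, 5 of 30 members were called lower in PKA tumor (Ern1, Xbp1, Chac1, P4hb and Herpud1) and 0 higher, where 13.0% of 15107 measured genes were called lower and 13.8% higher. Intervals lay below 0 for 20 members and above 0 for 5. An interval narrows as the UMIs of a gene rise, so it can leave out 0 at a small ratio. The share of all measured genes with such intervals was not counted. The median log2 ratio of the members was -0.25, against -0.05 over all measured genes. In hyperplasia 1 of 30 was called lower (Xbp1) and 0 higher, where 5.29% of 11954 measured genes were called lower and 5.39% higher; the medians were -0.03 for the members and 0.00 for all genes. The call for Xbp1 in hyperplasia was lost when both libraries were given the same class shares (-0.46). Under the same weighting, the calls for Ern1 (-0.48) and Chac1 (-0.53) in tumor were lost as well. The count in hyperplasia was near the background share, and the count in tumors was little above it.

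Within cells labelled Luminal Progenitor 1, shares of the authors' classes do not enter, and the tumor difference was wider. The leading genes of the class differed in part between the tumors. Scgb1b27, Ltf and Slpi were among them in PKA, and Saa1, Hey1 and Dusp5 in WT, while Spp1 and Dusp6 were among them in both. Whether this label marks like cells in both tumors was not tested. Here 7 of 30 members were called lower in PKA tumor and 1 higher, where 9.75% of 13224 measured genes were called lower and 13.9% higher. The median was -0.35 for the members and -0.02 for all genes, and 28 of 30 members had a ratio below 0. Intervals lay below 0 for 23 members and above 0 for 1. The shares of all measured genes with a ratio or an interval below 0 were not counted. The 10 members with an ERSE or ERSE-II ranged from -1.13 for Herpud1 to -0.08 for Calr, and 18 of the 20 others were below 0 as well. Those 20 include the 3 members without a promoter window (Manf, Hyou1 and Sec61a1), which were not searched for the elements. Herpud1 and Hspa5 were the 2 carriers past the fold. Herpud1 had 97.9 CPM in PKA tumor, against 215 CPM in WT tumor (-1.13, -1.23 to -1.04). Hspa5 had 717 CPM in PKA tumor, against 1122 CPM in WT tumor (-0.65, -0.69 to -0.61). Their PKA levels were thus about as low as in the sum over all cells, and their WT levels were higher than in it.

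The other members called lower in this class belonged to several roles. Ddit3 had 49.6 CPM in PKA tumor, against 103 CPM in WT tumor (-1.06, -1.20 to -0.92), and Xbp1 had 946 CPM in PKA tumor, against 1606 CPM in WT tumor (-0.76, -0.80 to -0.73). Both encode transcription factors of the response. Dnajb9, which feeds back on IRE1, had 124 CPM in PKA tumor, against 216 CPM in WT tumor (-0.80, -0.90 to -0.71). P4hb had 254 CPM in PKA tumor, against 397 CPM in WT tumor (-0.64, -0.71 to -0.58). Chac1 rested on 17 UMIs in PKA tumor and 34 UMIs in WT tumor (-1.38, -2.33 to -0.52), so its size is poorly set. Ern1 (-0.58, -1.08 to -0.09) lay just inside the fold. Sec61b was the member called higher, with 357 CPM in PKA tumor, against 236 CPM in WT tumor (0.60, 0.53 to 0.67), and without the 5% of cells with most UMIs it was just short of the fold (0.58). Pdia3 (-0.02), Trib3 (-0.06), Asns (-0.06) and Sel1l (-0.06) were close to equal, with intervals that spanned 0.

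In Luminal Progenitor 1 cells of hyperplasia, 0 of 30 members were called in either direction, where 5.8% of 10759 measured genes were called lower and 5.2% higher. The medians were -0.04 for the members and 0.00 for all genes. Below the fold, the 3 ATF4 targets Asns, Trib3 and Chac1 had intervals below 0. Asns had 40.5 CPM in PKA hyperplasia, against 60.5 CPM in WT hyperplasia (-0.58, -0.79 to -0.37), Trib3 had 132 CPM in PKA hyperplasia, against 183 CPM in WT hyperplasia (-0.47, -0.58 to -0.35), and Chac1 had 57.0 CPM in PKA hyperplasia, against 77.9 CPM in WT hyperplasia (-0.45, -0.63 to -0.27). Xbp1 had 305 CPM in PKA hyperplasia, against 435 CPM in WT hyperplasia (-0.51, -0.59 to -0.44). The degradation factors Edem1, Syvn1 and Sel1l were above 0 (0.54, 0.40 and 0.24), and Herpud1 was below 0 (-0.47, -0.64 to -0.31).

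**Figure D3:**
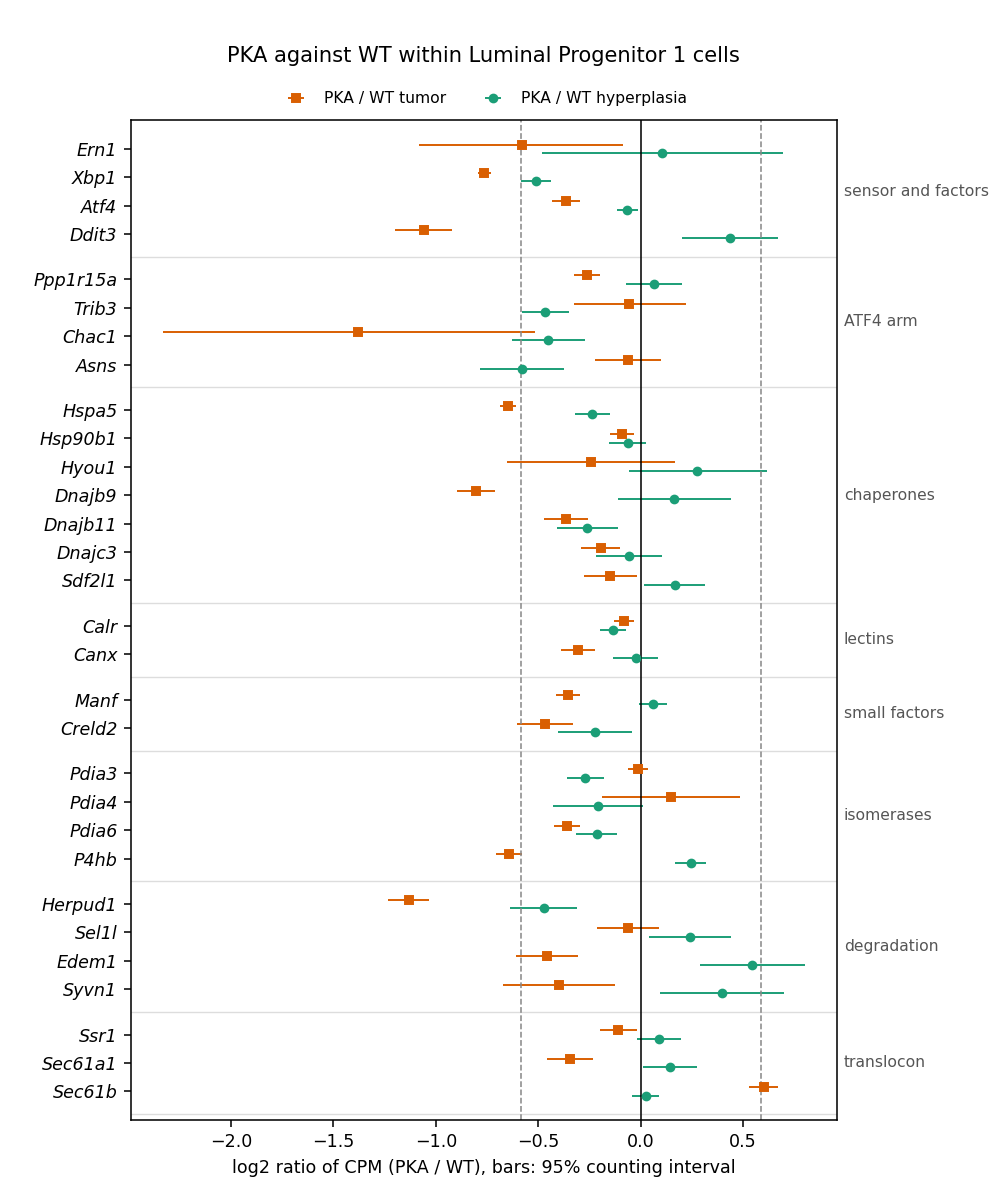
Log2 ratio of CPM of PKA over WT (x axis) for each member (y axis, by role) in Luminal Progenitor 1 cells of tumors and of hyperplasia; bars are 95% counting intervals and dashed lines mark a fold of 1.5. In tumors 28 of 30 points lie left of 0, with Chac1 (-1.38), Herpud1 (-1.13) and Ddit3 (-1.06) farthest; in hyperplasia every point lies between the dashed lines.

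Across the 8 classes, Xbp1 and Herpud1 had ratios below 0 wherever they were measured. Xbp1 was lower in the PKA library in 4 of 4 tumor classes (log2 ratios of -2.74 to -0.20) and in 4 of 4 hyperplasia classes (-1.02 to -0.26), each with an interval below 0. Its widest gap was in Lumino-Basal cells, with 337 CPM from 138 UMIs in PKA tumor, against 2256 CPM from 15065 UMIs in WT tumor. PKA tumor held 66 cells of that class and WT tumor held 1198. The leading genes of the class differed between the tumors: Dcn, Fermt1, Nkd2 and Klk6 in PKA, against Klk6, Asprv1, Klk10 and Klk8 in WT. Whether the label marks like cells in both tumors was not tested. The fibroblast list (Col1a1, Col1a2, Col3a1, Dcn and Pdgfra, with none at 0 in either library) summed to 722 CPM in these PKA cells and 112 CPM in these WT cells, and its part in the difference was not tested. Herpud1 was called lower in 4 of 4 tumor classes (-1.13 to -0.72) and had an interval below 0 in 2 of 3 hyperplasia classes in which it was measured. P4hb and Hspa5 had intervals below 0 in 4 of 4 tumor classes (-1.46 to -0.54 for P4hb and -0.68 to -0.13 for Hspa5). Sec61b had an interval above 0 in 3 of 4 tumor classes (0.10 to 0.71 over the 4).

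In Mature Luminal cells of tumors, the hormone-responsive class, 8 of 27 measured members were called lower and 1 higher, where 9.45% of 9474 measured genes were called lower and 15.9% higher. The median was -0.38 for the members and 0.05 for all genes. Beside the genes above, Manf had 196 CPM in PKA tumor, against 345 CPM in WT tumor (-0.81, -1.0 to -0.63), and Pdia6, an isomerase that binds BiP, had 154 CPM in PKA tumor, against 270 CPM in WT tumor (-0.80, -1.02 to -0.60). Sel1l was the member called higher, with 124 CPM in PKA tumor, against 74.4 CPM in WT tumor (0.73, 0.47 to 0.996), a call that was lost with TMM scaling (0.54). Among the 8, Ern1 (-1.10) and Trib3 (-0.83, from 8 UMIs in PKA tumor and 51 UMIs in WT tumor) had intervals that spanned 0. Trib3 was not called without the 5% of cells with most UMIs (-0.40). The fibroblast list summed to 30.0 CPM in these PKA cells and 901 CPM in these WT cells, with Col1a2 and Col3a1 at 0 in both and Pdgfra at 0 in WT, and its part was not tested. In EMT-like cells 5 of 27 were called lower and 2 higher, where 13.3% of 7520 measured genes were called lower and 11.8% higher, with medians of -0.13 for the members and -0.01 for all genes. The 5 were Xbp1, Ddit3, Ppp1r15a, Dnajb9 and Herpud1, the 2 higher were Sec61b and Pdia4, and Calr (0.43), Manf (0.48), Sdf2l1 (0.52) and Creld2 (0.36) had intervals above 0. With the mean of each cell's CPM, Ddit3 (-0.50) and Dnajb9 (-0.58) were no longer called in EMT-like cells. In Lumino-Basal cells 5 of 29 were called lower and 4 higher, where 25.6% of 9777 measured genes were called lower and 19.6% higher, with medians of -0.14 for the members and -0.06 for all genes. There Ddit3 was higher, with 142 CPM in PKA tumor, against 55.3 CPM in WT tumor (1.37, 0.93 to 1.76), the opposite side from Luminal Progenitor 1 cells. The PKA counts behind the other 3 higher calls were 5 to 23 UMIs, and their intervals spanned 0; that of Trib3 was lost with TMM scaling (0.52).

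In Luminal Progenitor 2 cells of hyperplasia more members lay above 0 than below. Of 29 measured members 1 was called higher and 0 lower, where 5.11% of 7245 measured genes were called higher and 5.22% lower. The median was 0.19 for the members and 0.03 for all genes. Intervals lay above 0 for 9 members and below 0 for 2, and the same count over all genes was not made. Asns had 86.9 CPM in PKA hyperplasia, against 51.4 CPM in WT hyperplasia (0.76, 0.37 to 1.15). Hspa5 had 478 CPM in PKA hyperplasia, against 335 CPM in WT hyperplasia (0.51, 0.36 to 0.67), and its partner Hsp90b1 had 378 CPM in PKA hyperplasia, against 270 CPM in WT hyperplasia (0.48, 0.31 to 0.66). P4hb, Pdia6, Calr, Manf, Sec61a1 and Sec61b were also above 0 (0.20 to 0.36). Xbp1 and Trib3 were the 2 below 0 (-0.26 for each). The milk and secreted protein genes summed to 31286 CPM in PKA hyperplasia, against 25284 CPM in WT hyperplasia in this class. Of 11 measured genes in that list, 4 were called higher and 3 lower (-5.94 to 2.68), and their part was not tested.

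In the remaining hyperplasia classes counts were lower. In Mature Luminal cells 6 of 19 measured members were called lower and 0 higher, where 12.4% of 3765 measured genes were called lower and 11.1% higher, with medians of -0.37 for the members and -0.06 for all genes. Xbp1 and Manf kept the call under each other scaling and cell filter tried; Pdia3, Ssr1, Sec61a1 and Sec61b lost it under at least 1, such as TMM scaling (-0.50, -0.46, -0.56 and -0.52). The class held 251 cells in PKA hyperplasia and 116 cells in WT hyperplasia, and the fibroblast list summed to 120 CPM in PKA and 609 CPM in WT (Col1a2 and Col3a1 at 0 in PKA, Pdgfra at 0 in WT), a part that was not tested. In Basal cells 3 of 24 were called lower (Xbp1, Herpud1 and Pdia6) and 0 higher, where 8.34% of 3188 measured genes were called lower and 6.34% higher, with medians of -0.22 for the members and -0.01 for all genes. The Pdia6 call (-0.60) was lost under each of 5 other scalings and cell filters (-0.57 to -0.42). The macrophage list summed to 1.9 CPM in PKA, where 5 of its 6 genes were at 0, and to 328 CPM in WT, and the fibroblast list had 801 CPM in PKA and 1582 CPM in WT; the part of these cells was not tested.

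**Figure D4:**
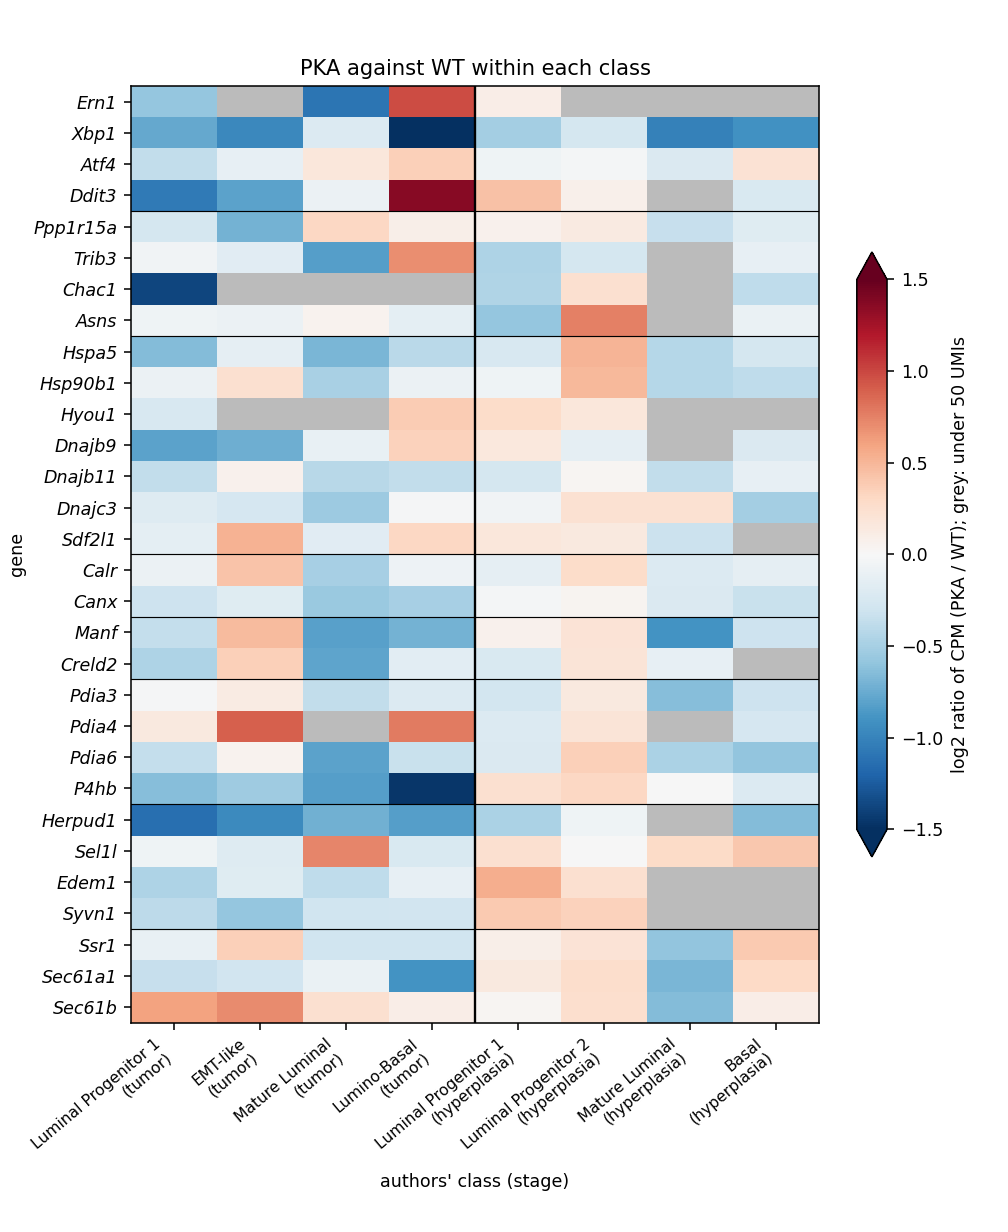
Log2 ratio of CPM of PKA over WT (color) for each member (rows, by role) in each class (columns, tumor on the left and hyperplasia on the right); grey cells had under 50 UMIs in both libraries together. The Xbp1 row is blue in every column (-2.74 to -0.20 in tumor and -1.02 to -0.26 in hyperplasia), Herpud1 is blue in the 4 tumor columns, and the Luminal Progenitor 2 column is mostly red.

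Tumors were then set against hyperplasias of the same genotype within Luminal Progenitor 1 cells. In this comparison the stage, the age of the mice and the digestion (glands longer than tumors, and followed by trypsin and dispase) cannot be told apart. The authors also named the classes separately at each stage, and Luminal Progenitor 2 is a class of hyperplasia only. Whether a class label marks like cells at both stages was not tested. The median over all measured genes was itself above 0, at 0.24 in PKA and 0.24 in WT, and TMM scaling moved all values down by about that much. Of 30 members, 7 were called higher and 6 lower in PKA tumor, where 36.4% of 12678 measured genes were called higher and 17.8% lower. In WT tumor 11 were called higher and 6 lower, where 36.0% of 11898 measured genes were called higher and 18.9% lower. The members' medians were 0.08 in PKA and 0.31 in WT. Over all cells 7 were called higher and 7 lower in PKA (34.1% and 17.8% of 13680 measured genes), and 10 higher and 6 lower in WT (38.7% and 16.6% of 14337). In Mature Luminal cells 7 of 24 were called higher and 2 lower in PKA (27.4% and 13.7% of 6241 measured genes), and 10 of 29 higher and 7 lower in WT (29.7% and 21.8% of 8822). The members were thus called higher no more often than all genes, or little more often, in these sums.

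Xbp1 and the chaperone genes Hspa5 and Dnajb9 were higher in Luminal Progenitor 1 cells of tumors in both genotypes, and Atf4 and its targets Trib3 and Chac1 were lower. Xbp1 had 946 CPM in PKA tumor, against 305 CPM in PKA hyperplasia (1.63), and 1606 CPM in WT tumor next to 435 CPM in WT hyperplasia (1.88). Hspa5 had 717 CPM in PKA tumor, against 265 CPM in PKA hyperplasia (1.44), and 1122 CPM in WT tumor next to 312 CPM in WT hyperplasia (1.85). Dnajb9 had 124 CPM in PKA tumor, against 29.8 CPM in PKA hyperplasia (2.05), and 216 CPM in WT tumor next to 26.6 CPM in WT hyperplasia (3.02). These 3 were called higher under each scaling tried. Atf4 was lower by -1.60 in PKA tumor and -1.30 in WT tumor, Trib3 by -2.84 and -3.25, and Chac1 by -5.50 and -4.57, in that order of genotypes. Chac1 had 1.23 CPM in PKA tumor, against 57.0 CPM in PKA hyperplasia, and 3.24 CPM in WT tumor next to 77.9 CPM in WT hyperplasia. Ppp1r15a, a feedback gene of the same arm, was higher in tumors, with 304 CPM in PKA tumor, against 113 CPM in PKA hyperplasia (1.43), and 365 CPM in WT tumor next to 108 CPM in WT hyperplasia (1.75). Asns was within the fold in both (0.37 in PKA and -0.14 in WT). Mature Luminal cells differed from this in part. There Hspa5 was called higher in both genotypes (1.12 in PKA and 1.37 in WT), but Xbp1 in PKA (1.05) and not in WT (0.23, -0.07 to 0.56), and Dnajb9 in WT (1.04) and not in PKA (0.21, -0.49 to 0.99). Atf4 was called lower there in WT (-0.75) and lay within the fold in PKA (-0.37), and Asns was called higher in both (2.16 in PKA, from 10 UMIs in hyperplasia, and 1.27 in WT, from 9 UMIs in hyperplasia).

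Chaperones and isomerases were split by gene and not by role. Pdia3 was called higher in tumors (1.32 in PKA and 1.06 in WT), and Dnajc3 and Pdia6 were called higher in both as well (0.80 and 0.65 in PKA, 0.93 and 0.79 in WT). Pdia4, with 13.3 CPM in PKA tumor, against 40.2 CPM in PKA hyperplasia, and 12.01 CPM in WT tumor next to 46.5 CPM in WT hyperplasia, was called lower (-1.60 and -1.95). Hyou1 was called lower in both (-1.42 in PKA and -0.90 in WT). In 4 genes only the WT pair passed the fold upward: Ddit3 (0.15 in PKA and 1.64 in WT; -0.08 in PKA with TMM scaling), Edem1 (0.36 and 1.36), Herpud1 (0.53 and 1.19) and Hsp90b1 (0.58 and 0.61). In the first 3, WT tumor had the highest level of the 4 libraries in this class. Whether the stage difference depends on genotype was not tested. With TMM scaling, Hsp90b1 in WT (0.38), Pdia6 in PKA (0.41) and WT (0.56) and Dnajc3 in PKA (0.56) were no longer called higher, and Ern1, Sdf2l1, Manf, P4hb, Sec61a1 and Sec61b were called lower in PKA (-0.82 to -0.60).

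**Figure D5:**
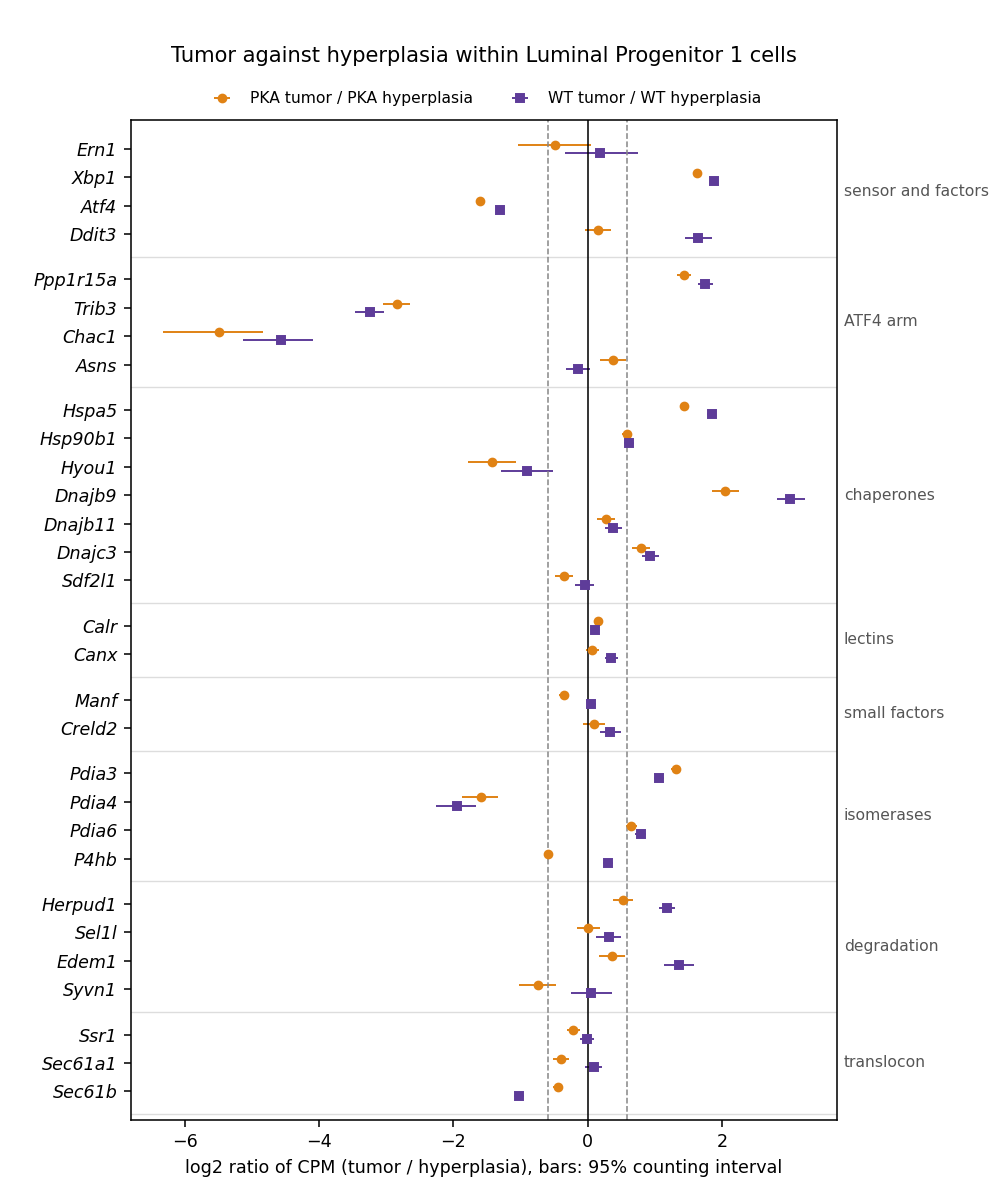
Log2 ratio of CPM of tumor over hyperplasia (x axis) for each member (y axis, by role) in Luminal Progenitor 1 cells of PKA and of WT; bars are 95% counting intervals and dashed lines mark a fold of 1.5. Xbp1, Hspa5, Dnajb9, Ppp1r15a and Pdia3 lie to the right in both genotypes, Atf4, Trib3, Chac1, Hyou1 and Pdia4 to the left, and Ddit3 is at 0.15 in PKA and 1.64 in WT.

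Immediate early and heat shock genes, which are known to respond to tissue dissociation, also differed by stage. In Luminal Progenitor 1 cells the 16 immediate early genes summed to 42514 CPM in PKA tumor, 48257 CPM in WT tumor, 7826 CPM in PKA hyperplasia and 7863 CPM in WT hyperplasia. The 10 heat shock genes summed to 4444 CPM in PKA tumor, 4682 CPM in WT tumor, 2407 CPM in PKA hyperplasia and 3095 CPM in WT hyperplasia. Between the tumors, 2 of these 10 heat shock genes were called lower in PKA and 2 higher in this class, with a median of -0.003. Of 13224 measured genes, 9.75% were called lower and 13.9% higher there. The list was split, with 5 genes above 0 and 5 below, from -1.78 to 1.04. The 2 lower were the stress-induced Hspa1a and Hspa1b. Hspa1a had 102 CPM in PKA tumor, against 243 CPM in WT tumor. Hspa1b had 14.0 CPM in PKA tumor, against 48.1 CPM in WT tumor. The milk and secreted protein genes, the main cargo of these cells, summed to 56081 CPM in PKA tumor, 55185 CPM in WT tumor, 52868 CPM in PKA hyperplasia and 42778 CPM in WT hyperplasia. The part of these genes in the members' differences was not tested.

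The rest of the pathway was counted in 5 lists of genes that are not members, here for Luminal Progenitor 1 cells of tumors, where 9.75% of measured genes were called lower and 13.9% higher. Of 16 measured sensors and regulators, 2 were called lower and 0 higher. They were Bhlha15 (MIST1), a secretory cell factor that is a known XBP1 target, with 7.01 CPM in PKA tumor, against 18.0 CPM in WT tumor (-1.36, -1.73 to -1.0), and Nfe2l2 (-0.64). The sensor genes Eif2ak3 and Atf6 were not among the calls. Of 22 ATF4-arm and amino acid genes, 3 were called lower and 1 higher, with a median of -0.19. Ddit4, an inhibitor of mTORC1 signalling, had 115 CPM in PKA tumor, against 335 CPM in WT tumor (-1.54, -1.63 to -1.46). Of 23 folding genes, 2 were called lower, among them Serp1, which protects nascent membrane proteins, with 282 CPM in PKA tumor, against 460 CPM in WT tumor (-0.70, -0.77 to -0.64).

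Of 16 further degradation genes, 1 was called lower: Derl2, a channel-like component of the retrotranslocation machinery, with 103 CPM in PKA tumor, against 179 CPM in WT tumor (-0.79, -0.89 to -0.69). Of 25 further translocon, signal peptidase and glycosylation genes, 3 were called lower (Srp68, Sec11c and Stt3b) and 1 higher (Sec62), with a median of -0.20. The list medians were thus below the median of all genes (-0.02) in the 5 lists, from -0.23 for degradation to -0.08 for sensors and regulators, while few genes passed the fold. In Luminal Progenitor 2 cells of hyperplasia, 5.11% of measured genes were called higher and 5.22% lower. In the lists, 1 of 15 sensors and regulators, 1 of 23 ATF4-arm genes and 1 of 16 degradation genes were called higher there. Of 19 folding and 24 translocon genes, 0 were called higher. Called lower were 2 ATF4-arm genes and 0 in the other lists. Bhlha15 had 39.3 CPM in PKA hyperplasia, against 12.04 CPM in WT hyperplasia (1.69, 1.0 to 2.44). Derl3, a Derlin of secretory cells, had 45.3 CPM in PKA hyperplasia, against 20.4 CPM in WT hyperplasia there (1.15, 0.57 to 1.75). In Luminal Progenitor 1 cells of hyperplasia, 5 of 23 ATF4-arm genes were called lower and 0 higher, where 5.8% of measured genes were called lower, with a median of -0.24. They were Gars, a tRNA synthetase, with 37.8 CPM in PKA hyperplasia, against 78.7 CPM in WT hyperplasia (-1.06, -1.26 to -0.86), the serine and one-carbon enzymes Phgdh, Shmt2 and Mthfd2 (-0.78, -0.62 and -0.71), and Vldlr (-0.66).

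Some counts may mix genes. Per the GENCODE annotation of GRCm38, another gene lies over the last 500 bases of 5 members (Ppp1r15a, Manf, Pdia6, Syvn1 and Sec61a1), the end that a 3' kit reads. The sources used here do not say whether reads were counted by strand. Values of these 5 genes are uncertain to that extent.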

How the data were processed

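Single cells were sorted by FACS and captured with the 10x Chromium 3' v2 kit, per the labels' protocols. The authors deposited raw UMI counts per gene and barcode, and tables of cells with a class and the fraction of mitochondrial UMIs. Per the submitters' processing notes, Cell Ranger, STAR 2.5.3a and featureCounts of Subread 1.6.0 were used with GRCm38/mm10; the annotation release and the filter that left 2638 of 2934, 5181 of 5800, 3818 of 4858 and 3808 of 5179 barcodes annotated (PKA tumor, WT tumor, PKA hyperplasia, WT hyperplasia) are not given in the sources used here. Classes were assigned with Monocle2, per the series design. Doublets were neither called nor removed here.

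Groups come from the sample titles. UMIs of annotated cells were summed by library and class (at least 50 cells) and scaled to CPM. Log2 ratios have 0.5 UMIs added, with exact 95% conditional binomial intervals. Shares have exact 95% Poisson intervals. Both cover counting error only. No test was made with 1 library per group. All members could be named, and other genes of the pathway where called in a list. The members and lists were chosen with earlier results of these data known. The steps were tested on simulated data. Alternatives were TMM factors (edgeR 4.0.16, R 4.3.3), the mean of each cell's CPM, totals without mitochondrial, ribosomal protein and milk protein genes, equal class shares, all barcodes, stricter filters on cells, no cells of the top 5% in UMIs, minimums of 10 and 100 UMIs, and a fold of 2. Promoter windows are from RefSeq (GRCm38.p6) and positions from GENCODE. Computations ran in Python 3.11.15, with NumPy 2.4.6 and SciPy 1.17.1; plots used matplotlib 3.10.9.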

Additional observations from a re-analysis of the deposited data

Results flagged for a closer look

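In 10 cases the log2 ratio of PKA over WT lay on opposite sides of 0 in 2 classes or 2 stages, with both counting intervals clear of 0 and the ratios at least a fold of 1.5 apart. With 1 library per group these differences were not tested. Between the stages they were 4 of 30 members measured in both for Luminal Progenitor 1 cells and 1 of 19 for Mature Luminal cells. Between Luminal Progenitor 2 and 1 cells of hyperplasia they were 2 of 29, and between EMT-like and Luminal Progenitor 1 cells of tumor 3 of 27. The share of all genes that met this rule was not counted. In Luminal Progenitor 1 cells, tumor minus hyperplasia differed by -1.49 for Ddit3 (-1.06 in tumor and 0.43 in hyperplasia), by -1.0 for Edem1 (-0.46 in tumor and 0.54 in hyperplasia), by -0.89 for P4hb (-0.64 in tumor and 0.24 in hyperplasia) and by -0.79 for Syvn1 (-0.40 in tumor and 0.40 in hyperplasia). In Mature Luminal cells the difference between the stages was 0.90 for Sec61b (0.24 in tumor and -0.65 in hyperplasia).

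Between classes of hyperplasia, Luminal Progenitor 2 minus Luminal Progenitor 1 came to 1.33 for Asns (0.76 and -0.58) and 0.75 for Hspa5 (0.51 and -0.24). Between classes of tumor, EMT-like minus Luminal Progenitor 1 came to 0.83 for Manf (0.48 and -0.36), 0.82 for Creld2 (0.36 and -0.47) and 0.67 for Sdf2l1 (0.52 and -0.15).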

How the results depend on the processing

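Of the counts and medians of members in the 6 main comparisons, recomputed under the alternatives, 145 stayed within the set limits and 11 moved; 1 of the 11, a median within the fold, changed sign. In PKA against WT hyperplasia over all cells, the count called lower went to 0 (1 as reported) with equal class shares, with all deposited barcodes and at a fold of 2. In PKA against WT tumor over all cells, the count called higher was 1 (0 as reported) with the mean of each cell's CPM, and the count called lower was 1 (5 as reported) at a fold of 2. In Luminal Progenitor 1 cells of tumors, the count called higher was 0 (1 as reported) without the 5% of cells with most UMIs and at a fold of 2, and the count called lower was 3 (7 as reported) at a fold of 2. With TMM factors the median of PKA tumor against PKA hyperplasia in that class was -0.15 (0.08 as reported), its count called lower was 12 (6 as reported), and the median of WT tumor against WT hyperplasia was 0.078 (0.31 as reported). Of values of single members under alternatives, 1689 stayed and 106 moved, and the 48 class medians recomputed stayed. A single value stayed if it lay within the counting interval of the reported ratio. A median stayed if it lay between the medians of the members' lower and upper interval limits. These limits are wide in small classes, so staying says little there, and a value that stayed could still lose its call. The alternatives for classes other than Luminal Progenitor 1 were chosen after seeing the data. No paired analysis was possible because each group has 1 library; for the same reason no replicate could be left out. Depth limits Ern1, Chac1, Hyou1 and the smaller classes most.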
